A study of Mus musculus with 17 samples.

Results

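Leptomeningeal fibroblasts are the matrix-forming cells of the pia and arachnoid, the thin membranes that cover the brain. They lay down a collagen and proteoglycan matrix, carry solutes between cerebrospinal fluid and blood, and are a known source of retinoic acid for the developing cortex beneath them. Their transcripts reach a bulk cortex library from membrane left on the tissue, and fibroblasts around larger vessels share many of them. In bulk tissue, fewer cells of a type and less RNA per cell cannot be told apart.

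The genes described here were 9 non-collagen genes typical of these cells, selected by symbol from the 55453 symbols of the mouse cortex expression table. All 9 passed the filter on low values, a mean of at least 1 TPM over the mice, which left 16265 genes for testing. TPM is the share that a gene takes of all transcripts in a library, scaled to a fixed total after division by transcript length, so levels of different genes can be compared in it. A list of 24 further leptomeningeal genes was set beside the members. None of the 24 was listed at 0 in any library, and 20 passed the filter. Foxc2, Foxd1, Twist1 and Slc22a2, with means of 0.28 to 0.56 TPM, did not pass. Levels above 0 in bulk tissue do not by themselves identify a cell type.

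The table covers bulk cortex of 17 mice, all male and on the C57BL/6J strain. At 8 weeks of age, hemizygous knockouts (KO) of Hnrnph2, an X-linked gene whose product binds RNA, and hemizygous R206W knockin mice were taken with wild-type littermates of their own line. Hemizygous P209L knockin mice were taken at 3 weeks, again with wild-type littermates, so line and age cannot be told apart for P209L. There were 3 mice in each mutant group, 3 KO controls, 3 R206W controls and 2 P209L controls. The strain given for the KO mice is that of the study's own KO line, in which an indel shifts the reading frame, and each genotype is represented by a single line. Whether the membranes were stripped from the cortex is not stated in the sources used here.

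Hnrnph2 itself was at 21.3 to 24.4 TPM in the KO mice against 80.5 to 145 TPM in their controls, and at 81.6 to 160 TPM in every other mouse. Depth could not be recovered from TPM, so precision was judged from the spread between mice. One library stood apart in cell content: P209L control 2 had 1740 TPM of Ttr, the transthyretin of choroid plexus epithelium, against 0.67 to 23.2 TPM in the other 16 mice. KO control 1 had 20.1% of its TPM in mitochondrial genes, against 10.7% to 15.4% elsewhere.

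The members fall into 3 roles. Dcn (decorin), Lum (lumican), Ogn (osteoglycin) and Fmod (fibromodulin) encode small leucine-rich proteoglycans, which bind collagen and shape its fibrils, and Islr encodes a secreted protein with leucine-rich repeats and an immunoglobulin domain. Slc6a13 (the GABA transporter GAT2), Slc13a4 (a sulfate transporter) and Slc22a6 (the organic anion transporter OAT1) encode solute carriers. Aldh1a2 encodes the retinaldehyde dehydrogenase that makes retinoic acid.

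In GRCm38, Dcn (ENSMUSG00000019929.16, chr10:97479609-97518143) and Lum (ENSMUSG00000036446.5, chr10:97565128-97572703) lie on the plus strand, 46984 bp apart with 0 annotated genes between them. Ogn (ENSMUSG00000021390.6, chr13:49608046-49624501, plus strand) overlaps Cenpp on the opposite strand. Whether the quantification used strand is not given in the sources used here, so reads of Ogn and Cenpp could have been mixed, although Cenpp was at 0.53 to 1.44 TPM throughout. Islr (ENSMUSG00000037206.15, chr9:58156268-58204306, minus strand) overlaps Islr2, a neuronal gene on the same strand at 13.0 to 37.5 TPM, and reads in the shared stretch could have been split between them. The other members are Slc6a13 (ENSMUSG00000030108.14, chr6:121300227-121337733, plus strand), Slc13a4 (ENSMUSG00000029843.4, chr6:35267957-35308131, minus strand), Aldh1a2 (ENSMUSG00000013584.5, chr9:71215789-71296243, plus strand), Fmod (ENSMUSG00000041559.7, chr1:134037254-134048277, plus strand) and Slc22a6 (ENSMUSG00000024650.5, chr19:8618039-8628299, plus strand).

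RefSeq promoter windows (GRCm38.p6, 250 bases before to 50 after a start) were found for 7 of the 9 members, all except Dcn and Lum. The windows below are those of a sulfate transporter, an anion transporter and the retinoic acid enzyme, which had the lowest P209L levels among the members, and of Ogn, whose levels varied apart from these genes. Capitals mark CCAAT or its reverse complement ATTGG.
Slc13a4 (chr6:35308077-35308376, minus strand): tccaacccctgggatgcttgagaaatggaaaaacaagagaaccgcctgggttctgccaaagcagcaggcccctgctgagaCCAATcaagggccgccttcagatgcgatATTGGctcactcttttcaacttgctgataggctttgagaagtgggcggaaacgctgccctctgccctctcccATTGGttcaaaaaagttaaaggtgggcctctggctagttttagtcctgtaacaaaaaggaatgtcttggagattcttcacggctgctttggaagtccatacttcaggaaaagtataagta
Slc22a6 (chr19:8617746-8618045, plus strand): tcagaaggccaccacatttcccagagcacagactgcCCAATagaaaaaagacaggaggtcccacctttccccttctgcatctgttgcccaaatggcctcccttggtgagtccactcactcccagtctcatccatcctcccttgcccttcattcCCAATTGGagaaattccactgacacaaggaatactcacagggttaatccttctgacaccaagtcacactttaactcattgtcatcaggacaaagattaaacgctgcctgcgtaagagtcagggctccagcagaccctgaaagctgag
Aldh1a2 (chr9:71215539-71215838, plus strand): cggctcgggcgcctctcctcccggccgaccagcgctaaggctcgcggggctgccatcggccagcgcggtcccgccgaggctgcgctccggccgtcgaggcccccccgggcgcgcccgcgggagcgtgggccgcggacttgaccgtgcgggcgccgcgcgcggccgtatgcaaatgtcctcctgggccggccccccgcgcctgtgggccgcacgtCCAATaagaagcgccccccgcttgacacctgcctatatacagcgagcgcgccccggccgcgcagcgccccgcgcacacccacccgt
Ogn (chr13:49607765-49608064, plus strand): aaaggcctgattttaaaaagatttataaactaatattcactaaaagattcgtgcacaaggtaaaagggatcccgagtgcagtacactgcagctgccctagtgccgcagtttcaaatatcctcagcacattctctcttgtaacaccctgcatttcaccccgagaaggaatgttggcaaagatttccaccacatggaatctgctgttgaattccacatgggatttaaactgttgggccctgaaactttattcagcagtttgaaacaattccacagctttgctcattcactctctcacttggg

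The Slc13a4 window held CCAAT in either orientation 170, 142 and 70 bases before the start. In the Slc22a6 window the matches lay 214, 97 and 94 bases before it, and the last pair overlap on opposite strands. Aldh1a2 had a match 36 bases before its start, in a window of 78.0% GC with 50 CpG dinucleotides, against a median of 52.7% GC over all promoters. The Ogn window had 0 such matches and 2 of the TATA box, searched as TATAAA on both strands. These 2 overlap on opposite strands in a single stretch near the upstream end of the window. Of the member windows not printed, that of Islr held 0 CCAAT matches, and that of Fmod held 1, which lay 34 bases after the start. The Slc6a13 windows held 0, 1 and 1. Whether these letters go with expression was not tested. Among the 32851 promoter windows of the table, 37.4% held the CCAAT letters and 13.6% the TATA letters, so both are common. A forkhead motif, GTAAACA on either strand, was in 3.65% of all windows and in none of the members' windows. A match describes letters only.

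Dcn was the most abundant member, with a mean of 16.9 TPM over the 17 mice. Islr followed at 9.13, Fmod at 7.33, Ogn at 7.19 and Slc6a13 at 5.64 TPM, and Slc13a4 (4.14), Aldh1a2 (3.28), Slc22a6 (2.25) and Lum (2.12) were lowest. Neighbours in this order overlapped in their ranges, from 10.4 to 32.9 TPM for Dcn and 3.67 to 15.8 TPM for Islr down to 0.55 to 4.41 TPM for Slc22a6 and 1.58 to 3.19 TPM for Lum. Fmod varied most, 9.67-fold between its lowest and highest mouse, and Lum least, 2.02-fold. Summed over the 9 genes the level was 30.6 to 85.4 TPM, at most 0.00854% of a library.

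**Figure D1:**
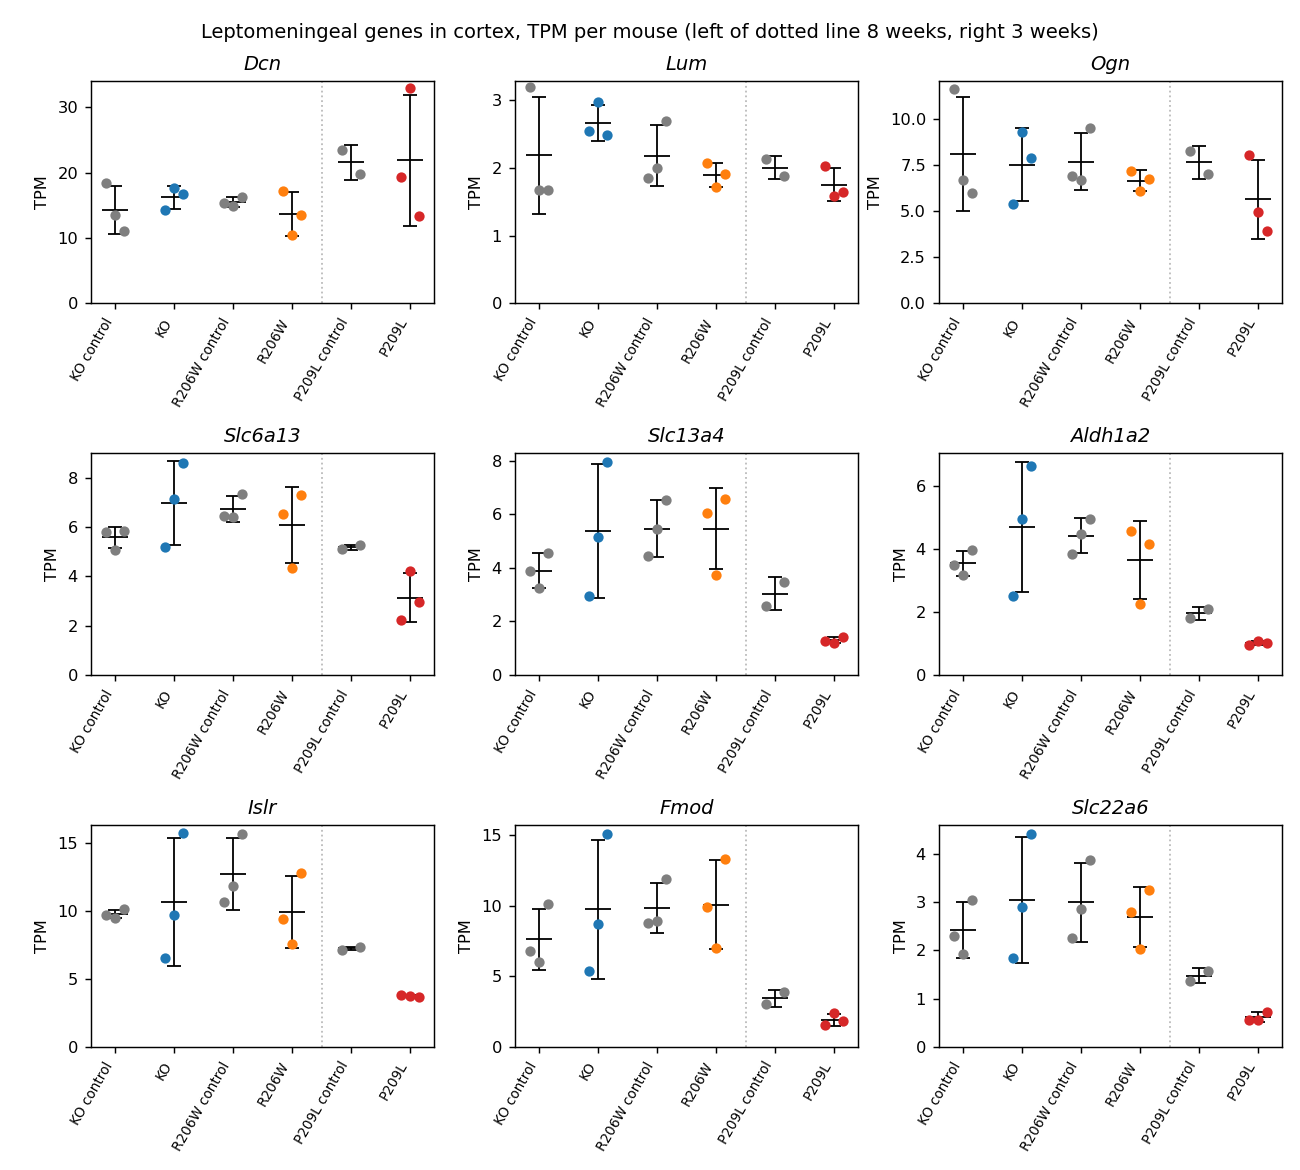
TPM of each of the 9 genes in every mouse (dots) by group, with the group mean and SD (bars), grey for controls. The 5 mice to the right of the dotted line were 3 weeks old, and there the 3 P209L mice lie below both controls for Slc6a13, Slc13a4, Aldh1a2, Islr, Fmod and Slc22a6.

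The P209L comparison asked whether the substitution alters cortical expression at 3 weeks, and of the mutant comparisons it was the only one in which any member separated. For 6 of the 9 genes, the 3 solute carriers, Aldh1a2, Islr and Fmod, every P209L mouse was below both controls. Their mean TPM was between 41.4% (Slc22a6) and 60.6% (Slc6a13) of control. Over all genes tested, 10.7% had P209L mice wholly below controls. None of the 9 passed an adjusted p under 0.05 in limma, in which 0.0984% of genes passed. Of these genes Slc6a13, Slc13a4, Islr and Slc22a6, 4 of 9, met a looser rule (p under 0.05 before adjustment, log2 difference beyond 0.5), as did, in the lower direction, 1.48% of genes. The study's own list of genes changed in P209L cortex used such limits and holds Slc13a4, Aldh1a2, Islr, Fmod and Slc22a6, so these counts are not independent evidence.

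Among the solute carriers, Slc13a4 was at 2.59 and 3.46 TPM in the P209L controls and at 1.28, 1.21 and 1.42 TPM in P209L mice. The P209L values lay close together and below every other mouse of the series. Its log2 difference was -0.80 (SE 0.272, unadjusted p = 0.0101, adjusted p = 0.460 by limma). Log2 differences here are of TPM + 1, which understates the change of low genes.

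Slc22a6 was at 1.37 and 1.58 TPM in P209L controls and at 0.55, 0.55 and 0.73 TPM in P209L mice. The groups were apart, with a log2 difference of -0.62 (SE 0.241, limma unadjusted p = 0.0208, adjusted p = 0.544). Slc6a13 was at 5.10 and 5.26 TPM in controls and at 2.25, 4.21 and 2.95 TPM in P209L mice. Its P209L mice were more spread than its controls, and the difference was -0.61 (SE 0.215, unadjusted p = 0.0125, adjusted p = 0.487, limma).

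Aldh1a2 was at 1.80 and 2.10 TPM in P209L controls and at 0.94, 1.07 and 1.00 TPM in P209L mice. All 5 mice of this line were below the 12 mice aged 8 weeks. The log2 difference between P209L and control was -0.56 (SE 0.263, limma unadjusted p = 0.0508, adjusted p = 0.670).

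In the matrix group, Islr was at 7.17 and 7.35 TPM in P209L controls and at 3.82, 3.74 and 3.67 TPM in P209L mice. Both groups were tight, and the difference of -0.80 (SE 0.255) had the smallest unadjusted p of the members, 0.00654, with an adjusted p of 0.380 in limma. Fmod was at 3.02 and 3.87 TPM in controls and at 1.56, 2.38 and 1.83 TPM in P209L mice. The Fmod groups also did not overlap, with a difference of -0.61 (SE 0.315, unadjusted p = 0.0724, adjusted p = 0.725, limma).

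The other 3 matrix genes had overlapping groups. Dcn was at 23.4 and 19.7 TPM in P209L controls and at 19.3, 32.9 and 13.4 TPM in P209L mice, and 1 of these was the highest Dcn value of the series. Ogn was at 8.27 and 7.02 TPM against 8.05, 4.95 and 3.94 TPM, and Lum at 2.13 and 1.88 TPM against 2.03, 1.58 and 1.64 TPM. Their log2 differences were -0.067 for Dcn (SE 0.280), -0.42 for Ogn (SE 0.273) and -0.13 for Lum (SE 0.186), and that of Dcn changed sign when P209L control 1 or P209L 3 was left out.

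Counted together, 9 of 9 members had a negative difference in P209L, with a median of -0.61. Over the 16265 genes tested, 7507 differences were negative and the median was 0.016. The summed level without Dcn, Lum and Ogn was 21.1 and 23.6 TPM in P209L controls and 10.4, 13.2 and 11.6 TPM in P209L mice. The sum of Dcn, Lum and Ogn was 33.8 and 28.6 TPM in controls and 29.4, 39.4 and 19.0 TPM in P209L mice. Dcn made up 43.8% to 62.6% of the 9-gene sum in P209L mice, 37.7% and 42.7% in their controls and at most 30.7% at 8 weeks. This division of the members was drawn after their values were seen.

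**Figure D2:**
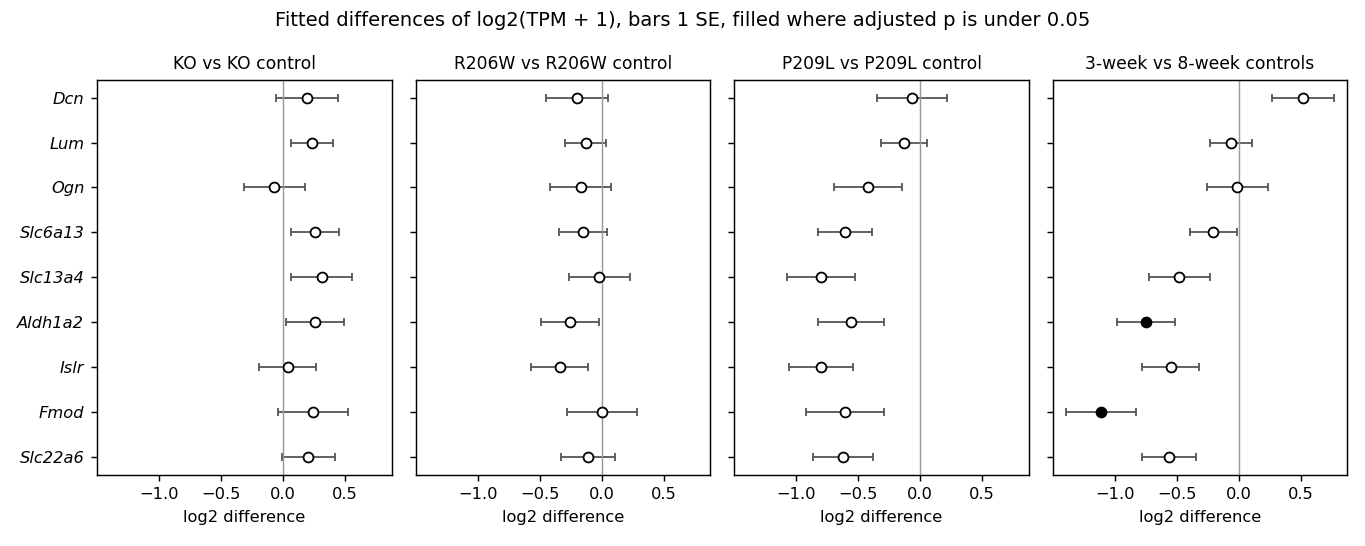
Fitted log2 differences of the 9 genes (dots, bars 1 SE) for each mutant against its own controls and for 3-week against 8-week controls, filled where the adjusted p was under 0.05. The P209L dots are all left of 0 and open, and the 2 filled dots are Aldh1a2 and Fmod in the age comparison.

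P209L control 2, the library with choroid plexus RNA, also bears on these values. Its summed level of 12 choroid plexus genes was 1795 TPM, against 11.9 TPM in P209L control 1 and 6.80 to 17.7 TPM in P209L mice. The 3 of these 12 genes that were tested (Ttr, Kcnj13 and Folr1) had lower fitted levels in P209L. By the unadjusted rule 2 were called (Ttr and Kcnj13), as were 1.48% of all genes in that direction, and 0 by adjusted p. Folr1 passed the filter only through P209L control 2, at 18.2 TPM against 0.14 to 1.70 TPM in the other mice. It was kept in the fits with a mouse left out. P209L control 2 was the higher control for each of the 6 separated genes and the lower for Dcn, Lum and Ogn. Without it all 9 differences stayed negative with a median of -0.53, and 1 member in place of 4, Islr, met the unadjusted rule. That fit has a single P209L control, which is assumed to vary like the mice of the other groups. Without P209L control 2 the median of the 3 choroid plexus genes was 0.16 in place of -1.38, and 0 of them met the unadjusted rule. P209L control 1, with choroid plexus genes at the level of the other mice, was above every P209L mouse for all 6 genes. That follows from how the 6 were picked, as genes with every P209L mouse below both controls.

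Other cell types moved with the P209L comparison too. All 9 oligodendrocyte genes of a marker list were lower (median log2 difference -0.87). Adjusted p called 0 of them, and the unadjusted rule called 9, against 1.48% of all genes in that direction. Their summed level was 4115 and 6131 TPM in controls and 2481 to 3560 TPM in P209L mice. Among these genes, Mbp (myelin basic protein) differed by -0.71 and Mobp (another myelin protein) by -0.93. All 8 endothelial genes (median -0.30, 0 by either rule) and all 8 mural genes (median -0.29, 0 by either rule) were lower, with sums of 125 and 156 against 101 to 130 TPM and of 66.3 and 77.0 against 53.8 to 68.7 TPM. Examples are Slc2a1 (the glucose transporter of the barrier, -0.29) and Rgs5 (a pericyte gene, -0.11). The 5 blood genes were lower (median -0.68, 2 by the unadjusted rule, 0 by adjusted p), with sums of 2572 and 4884 TPM against 1905 to 2837 TPM, whereas 3 of 8 cortical neuron genes were lower (median 0.024). Of the 4 tested genes of an 11-gene skeletal muscle list, 3 were lower and Mylpf was higher (median -0.80). The untested genes of this list, such as Ckm (mean 0.039 TPM) and Myh4 (mean 0.148 TPM), averaged under 1 TPM. Myh7 and Tnnc1, sarcomere genes, fell by 1.43 and 1.23 and passed the adjusted threshold. These calls also moved with a single control. Without P209L control 2 the medians were -0.63 for oligodendrocyte, -0.12 for endothelial, -0.15 for mural and -0.12 for blood genes, and the counts by the unadjusted rule were 4 of 9 oligodendrocyte and 0 of 5 blood genes. Without P209L control 1 all 5 blood genes met it, and with either P209L control left out 0 muscle genes passed the adjusted threshold. No gene of these lists was listed at 0 in all libraries. The part of these cell types in the members' difference was not tested.

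**Figure D3:**
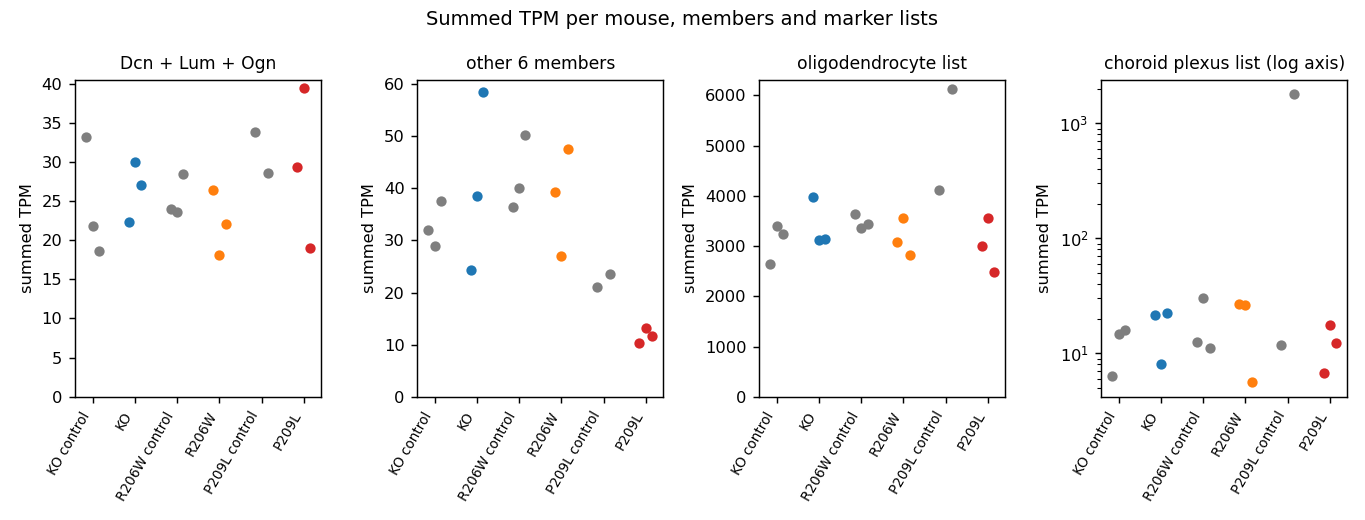
Summed TPM per mouse (dots, by group) of Dcn, Lum and Ogn, of the other 6 members, of 9 oligodendrocyte genes and of 12 choroid plexus genes on a log axis. The other 6 members lie at 10.4 to 13.2 TPM in P209L mice and at 21.1 and 23.6 TPM in their controls, and the choroid plexus sum is at 1795 TPM in P209L control 2 alone.

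KO and R206W mice, both 8 weeks old, were compared with their own littermates in the same way. None of the 9 genes had separated groups in either line, where 6.25% of all genes in KO and 16.2% in R206W did so in one direction or the other. None passed an adjusted p (0.00615% of genes in KO, 0.0369% in R206W) or the unadjusted rule (0.867% and 0.584%), and 0 had an unadjusted p under 0.05 in limma, as 4.08% of genes had in KO and 2.19% in R206W.

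KO mice had higher fitted levels than controls for 8 of 9 members, or 7 of 9 after rescaling by median-of-ratios size factors. Before rescaling, 10942 of the 16265 genes tested were also higher in KO mice. Differences ran from -0.071 for Ogn to 0.31 for Slc13a4 with a median of 0.23, against 0.064 over all genes, and every adjusted p was 0.999. The spread within the KO group was wide. Slc13a4 was at 3.87, 3.24 and 4.54 TPM in controls and at 2.96, 5.16 and 7.95 TPM in KO mice, and Islr at 9.75, 9.48 and 10.1 TPM against 6.51, 9.73 and 15.8 TPM. Fmod, at 6.79, 6.03 and 10.1 TPM in controls, was at 5.41, 8.74 and 15.1 TPM in KO mice. KO 1 was the lowest and KO 3 the highest of their group for the 6 genes named above, and for 5 of these, all but Slc6a13, the KO values enclosed those of controls. Without KO 3 the KO median was 0.011.

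R206W mice had lower fitted levels for 8 of 9 members, or 9 of 9 with median-of-ratios size factors, where Fmod also turned negative. Before rescaling, 7618 of the 16265 genes tested were lower in R206W mice. The differences ran from -0.34 for Islr to 0.0022 for Fmod, with a median of -0.15 and every adjusted p at 1. Islr was at 10.6, 11.9 and 15.7 TPM in controls and at 9.42, 7.56 and 12.8 TPM in R206W mice, which overlap. Aldh1a2 was at 3.83, 4.48 and 4.96 TPM against 4.57, 2.24 and 4.14 TPM. R206W control 3 was the highest of its group for all 9 genes and R206W 2 the lowest of its group for all 9, and without R206W 2 the log2 ratio of the 9-gene sums was 0.0013 in place of -0.17.

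Differences between the mutant effects were tested directly. The P209L effect was below the KO effect for 9 of 9 members (median -0.83) and for 9255 of the 16265 genes tested. Of the members 0 passed the adjusted threshold, which 0.0492% of all genes passed. At an unadjusted p under 0.05 there were 5 of 9 members, all with the lower effect in P209L as for 4.69% of all genes, Slc13a4 (-1.11, SE 0.366), Slc6a13 (-0.86), Islr (-0.84), Slc22a6 (-0.83) and Aldh1a2 (-0.81). Against the R206W effect, P209L was lower for 8 of 9 members (median -0.46) and for 8014 of the 16265 genes. Of the members 0 passed by adjusted p (0% of all genes did). Slc13a4 alone had an unadjusted p under 0.05 in limma (-0.78, SE 0.366), as had 1.56% of genes in that direction. The KO effect was above the R206W effect for all 9 members (median 0.36) and for 10255 of the 16265 genes. Of the members 0 passed by either p, and 0.0307% of genes passed by adjusted and 2.29% by unadjusted p. Age also differs between P209L and the other lines, and its part cannot be told apart.

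Age was addressed with control mice only, P209L controls at 3 weeks against the mean of KO and R206W controls at 8 weeks, which also differ in line. Of the members, 2 of 9, Fmod and Aldh1a2, were lower at 3 weeks with an adjusted p under 0.05, and 24.8% of all genes were. By the unadjusted rule 4 of 9 were lower (these genes, Islr and Slc22a6), against 19.8% of genes. The same 4 had 3-week controls below every 8-week control (21.5% of genes), and Dcn had them above (16.7%). At 2 of 9, the adjusted count is near the share over all genes, and no result about the members is read from it.

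Fmod was at 3.02 and 3.87 TPM in 3-week controls and at 6.03 to 11.9 TPM in 8-week controls, with a log2 difference of -1.11 (SE 0.282, adjusted p = 0.00703, limma). Aldh1a2 was at 1.80 and 2.10 TPM against 3.18 to 4.96 TPM, a difference of -0.75 (SE 0.235, adjusted p = 0.0221, limma). With 1 of the 2 P209L controls left out, the other is again assumed to vary like the mice of other groups. Neither call held without P209L control 1 (limma adjusted p = 0.0903 for Fmod and 0.155 for Aldh1a2), and that of Aldh1a2 did not hold without P209L control 2 (adjusted p = 0.0908).

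Slc22a6, at 1.37 and 1.58 TPM in 3-week controls and 1.92 to 3.88 TPM in 8-week controls, differed by -0.56 (adjusted p = 0.0527 by limma). Islr, at 7.17 and 7.35 TPM against 9.48 to 15.7 TPM, differed by -0.55 (adjusted p = 0.0708). Slc13a4 (-0.48) and Slc6a13 (-0.20) did not separate.

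Dcn was at 23.4 and 19.7 TPM in the 3-week controls and at 11.0 to 18.4 TPM in the 8-week controls, 0.52 higher (SE 0.250, adjusted p = 0.119, limma). Lum and Ogn differed by -0.062 and -0.012, which turned positive under median-of-ratios scaling. The median over the members was -0.48, and over all genes -0.12, which was -0.022 after that scaling.

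The 2 groups of 8-week controls differ in line and not in age. R206W controls were above KO controls for 8 of 9 members (median 0.23), or 6 of 9 with median-of-ratios size factors, and the median over all genes was 0.13. Before that rescaling, 13652 of the 16265 genes tested were also higher in R206W controls, so 8 of 9 is near the general share. No member passed by adjusted p (0% of genes) or by the unadjusted rule (0.541%), and 0 had an unadjusted p under 0.05 in limma (3.12% of genes). For Slc6a13 and Islr, 2 of 9, all R206W controls were above all KO controls, as for 8.43% of genes. The P209L difference of Slc13a4, -0.80, compares with 0.40 (SE 0.244) between these control groups.

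Within groups, 6 of the members varied together from mouse to mouse, and largely apart from Dcn, Lum and Ogn. After subtraction of group means, Pearson's r over the 17 mice was 0.700 to 0.964 (median 0.884) for the 15 pairs among Slc6a13, Slc13a4, Aldh1a2, Islr, Fmod and Slc22a6. It was 0.419 to 0.842 for the 3 pairs among Dcn, Lum and Ogn, and -0.0315 to 0.562 (median 0.165) for the 18 pairs between these sets. KO control 1, the mouse with the most mitochondrial RNA, was the highest KO control for Dcn, Lum and Ogn, and KO control 3 for the other 6. P209L control 1 and P209L control 2 were split the same way. The values share a library and its total, and are given as a description.

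**Figure D4:**
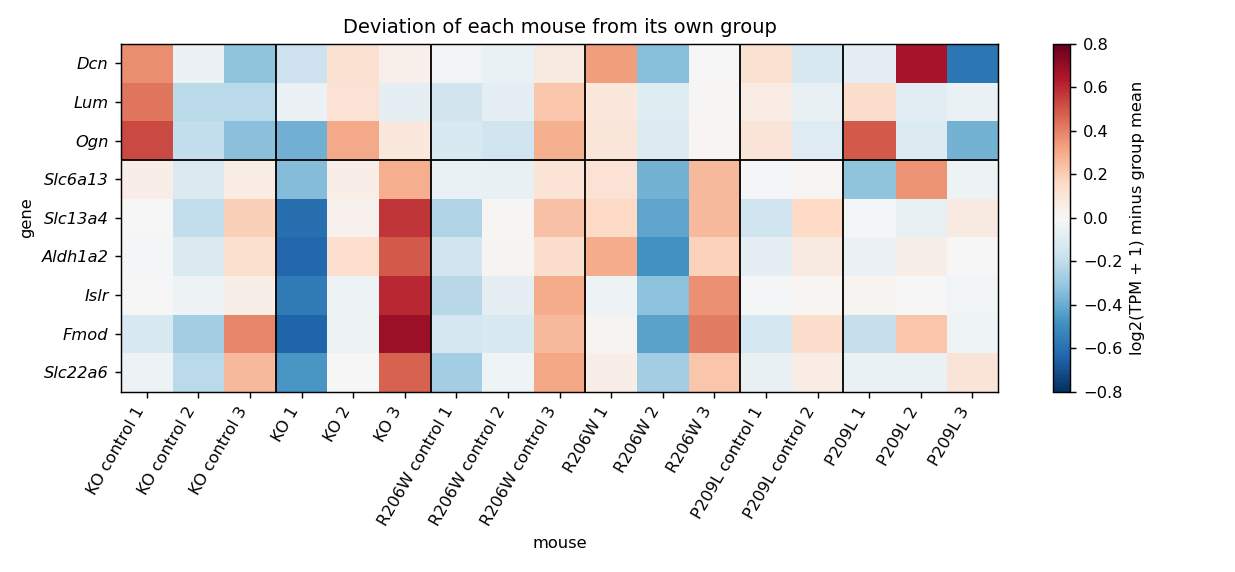
Heat map of log2(TPM + 1) minus the group mean, genes as rows and mice as columns, red above and blue below the mean of the mouse's own group. The lower 6 genes are blue together in KO 1 and R206W 2 and red together in KO 3, and the upper 3 are red in KO control 1.

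Of the 16256 other genes tested, those whose deviations most resembled the mean deviation of the members were Mpzl2 (Pearson's r 0.935, Spearman's rho 0.904, 17 mice), Ptgds (0.926, 0.885), Aebp1 (0.884, 0.858), Gjb2 (0.880, 0.798), Bmp6 (0.862, 0.801), Pcolce (0.859, 0.801), Cped1 (0.856, 0.757) and Slc47a1 (0.854, 0.838). Ptgds (prostaglandin D2 synthase), Gjb2 (connexin 26), the growth factor gene Bmp6 and the transporter gene Slc47a1 were also in the list of further leptomeningeal genes.

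In that list, 18 of the 20 tested genes were lower in P209L mice (median -0.38). Adjusted p called 0, and the unadjusted rule called 9, against 1.48% of all genes in that direction. Without P209L control 2 the median was -0.33 and the count by that rule 2. Ptgds, the most abundant, was at 672 and 792 TPM in P209L controls and at 314, 347 and 368 TPM in P209L mice, a difference of -1.09 (SE 0.231, adjusted p = 0.110 by limma). Igf2, an insulin-like growth factor gene, was at 39.1 and 54.5 TPM against 20.3 to 24.9 TPM, a difference of -1.03 (SE 0.228, adjusted p = 0.123, limma). Igfbp2, whose product binds such factors, differed by -0.70. P209L control 2, the library with choroid plexus RNA, was the higher control for Ptgds, Igf2 and Igfbp2. No difference without that library is given for these genes, and the part of other cell types in their differences was not tested. The P209L mice lay wholly below their controls for 12 of the 20, against 10.7% of all genes tested. In KO, 18 of 20 were higher (median 0.24), as were 10942 of the 16265 genes tested. In R206W 12 of 20 were lower (median -0.041), as were 7618 of the 16265. Adjusted p called 0 of the 20 in either line. At an unadjusted p under 0.05 in limma 0 were called in R206W and 3 in KO, all higher, as were 3.46% of all genes.

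The wider family of small leucine-rich proteoglycans gave 7 tested genes of 13, of which 6 were lower in P209L (median -0.22, or -0.071 without P209L control 2) and 0 passed by adjusted p. Biglycan (Bgn), Prelp and Omd were also in the list of further leptomeningeal genes, so they are counted in both lists. Bgn was at 3.62 and 4.39 TPM in P209L controls and at 1.60 to 2.07 TPM in P209L mice (-0.80, adjusted p = 0.540, limma), and Prelp (-0.28) and Podn (-0.14) overlapped. At 3 weeks, control Bgn (-0.93, adjusted p = 0.0159) and Prelp (-1.31, adjusted p = 0.00312) were lower than at 8 weeks in limma, like Fmod.

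Retinoid genes beside Aldh1a2 were listed as well. Of 11 tested among 14, 7 were lower and 4 higher in P209L (median -0.092, or 0.045 without P209L control 2), and 0 passed by adjusted p or by unadjusted p (7.46% of all genes) in limma. Aldh1a1, an enzyme of the same family found in other brain cells, was at 61.5 and 71.1 TPM in P209L controls and at 44.8 to 69.9 TPM in P209L mice, a difference of -0.23. Rbp4, the plasma retinol carrier, differed by 0.17 and Dhrs3, a retinaldehyde reductase, by -0.12. In the age comparison Aldh1a1 was 0.39 higher at 3 weeks (adjusted p = 0.0423, limma), while Aldh1a2 was lower.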

How the data were processed

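Bulk cortex RNA from 17 mice in 6 groups was profiled from RNeasy total RNA and TruSeq stranded total RNA libraries. The authors deposited TPM by gene symbol, a column per mouse, and 0 columns were left unused. The submitters' processing notes name Trim Galore, STAR 2.7.1a, GATK 4.0.4.0, RSEM and mm10, and the annotation is not given in the sources used here. TPM keeps no depth, and abundant transcripts can shift all others. Of 55573 entries, 120 repeated a symbol and were summed. GENCODE M21 (GRCm38) held 98.3% of symbols and gave identifiers and coordinates.

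Genes averaging at least 1 TPM were analysed as log2(TPM + 1) by limma 3.58.1 in R 4.3.3 (a mean per group, eBayes with trend), two-sided, with Benjamini-Hochberg adjustment over the 16265 genes of each of 8 contrasts and a threshold of 0.05. The unadjusted rule was p under 0.05 and an absolute log2 difference above 0.5. The fit was tested on simulated data. A p-value sets a group difference against the gene's spread between mice, pooled over all 6 groups and drawn toward a trend over genes. For P209L, most of that spread comes from the 8-week mice of the other lines. Lists were described by counts and medians. Named were the members, up to 3 genes per list (those past the adjusted threshold, else the most abundant) and the 8 genes most like the members. The members and lists were chosen with earlier results of these data known. Alternatives were pseudocounts of 0.1 and 0.5, other filters, scalings and groups, mitochondrial genes removed, robust=TRUE, arrayWeights (gene-by-gene method, as the default did not converge), a replicate block and leaving out each mouse.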

Additional observations from a re-analysis of the deposited data

How the results depend on the processing

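Alternatives were computed for the members' counts, sums and reported differences and, chosen after seeing the data, for the marker lists' medians and counts by the unadjusted rule in P209L (in KO and R206W for further leptomeningeal genes only), for the 6 separated members and for Slc13a4 between control lines. No alternatives were run for the lists in the age comparison, for single genes of the lists, or for separation outside P209L. The members past an adjusted p in KO numbered 1 with arrayWeights (Lum, 0.43, adjusted p = 0.0246, range over alternatives 0.0246 to 1). In the age comparison that count was 1 with no filter, 1 with a mean TPM of at least 5, 4 with only the groups compared, 5 with arrayWeights, and 0 to 4 with a mouse left out, 0 without P209L control 1 and 1 without P209L control 2. By the unadjusted rule the age count was 2 at a mean TPM of at least 5, 2 with the replicate block and 1 to 5 with a mouse left out. The P209L count was 2 at a mean TPM of at least 5 and 1 to 6 with a mouse left out, the KO count 0 to 2, the R206W count 0 to 1, and the control line count 1 with arrayWeights (Slc13a4). The log2 ratio of 9-gene sums was -0.39 in P209L and -0.74 without Dcn, and -0.22 for age and -0.57 without Dcn.

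Directions turned as follows. With arrayWeights they turned in KO for Aldh1a2 (-0.055), Islr (-0.31) and Fmod (-0.025), in R206W for Fmod (-0.083), in P209L for Dcn (0.16), and for age in Lum (0.050) and Ogn (0.11). With median-of-ratios size factors they turned for Islr in KO (-0.040), Fmod in R206W (-0.0042), and Lum (0.0069) and Ogn (0.085) for age, and with quantile normalization for Islr in KO (-0.047), Fmod in R206W (-0.014) and Ogn for age (0.14). Fmod in R206W was -0.00056 at a pseudocount of 0.1 and -0.0025 with mitochondrial genes removed, and Dcn in P209L was 0.011 with the replicate block. With a mouse left out the differences in KO ran from -0.24 to 0.19 for Ogn, -0.26 to 0.32 for Islr, -0.10 to 0.56 for Fmod and -0.030 to 0.44 for Slc22a6. In R206W they ran from -0.28 to 0.038 for Slc6a13, -0.15 to 0.19 for Slc13a4, -0.20 to 0.22 for Fmod and -0.25 to 0.046 for Slc22a6. They ran from -0.40 to 0.22 for Dcn in P209L, and for age from -0.12 to 0.045 for Lum and -0.12 to 0.12 for Ogn. Among list medians, that of cortical neuron genes in P209L was -0.088 with the replicate block, -0.051 with arrayWeights and -0.12 to 0.091 with a mouse left out. With a mouse left out, the P209L medians ran from -0.092 to 0.045 for retinoid genes and from -3.25 to 0.16 for choroid plexus genes. The R206W median of further leptomeningeal genes was 0.0023 at a mean TPM of at least 5 and -0.14 to 0.039 with a mouse left out. The cause of these turns was not tested. In P209L the 6 separated genes kept a negative difference under every alternative run. The separated members numbered 6 under either scaling or without mitochondrial genes. With a mouse left out they numbered 6 to 8. Leaving out a mouse cannot lower this count or turn the direction of a separated gene, so it tests neither. Other pseudocounts or filters, robust=TRUE, only the groups compared and arrayWeights cannot turn that direction either. Only the scalings, removal of mitochondrial genes and the replicate block could have turned it.

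Same-numbered mice deviated with r of -0.058 to 0.331 in KO, -0.113 to -0.028 in R206W and 0.0028 to 0.081 in P209L. With so few mice per group, and no r for differently numbered mice, these values cannot show whether the numbers pair the mice. The replicate block took the P209L count by the unadjusted rule from 4 to 6. Depth is unknown, and 2 controls limit every P209L value.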
